A study of Mus musculus with 10 samples.

Results

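The 9 genes described here are mouse genes of the Leydig cell. Star, Cyp11a1, Cyp17a1, Fdx1, Hsd3b1, Hsd3b6, Hsd17b3 and Lhcgr make steroid hormones or control their making, and Insl3, a Leydig cell peptide hormone with no part in making steroids, is counted with them under the name steroidogenesis genes. They were taken by symbol from 2 tables of RNA-seq values. All 9 were listed among 20007 genes in the table of adult testis, and 8 were listed among 17816 genes in the table of day 7 cells, which does not list Hsd3b6. The rule that selects them uses no expression value.

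The study concerns RNF20, a ubiquitin ligase for histone H2B, in the Sertoli cells that nurse the germ cells inside the seminiferous tubules. The day 7 table holds 4 samples of cultured cells labelled as Sertoli cells, 2 labelled WT and 2 labelled conditional knockout. Day 7 is the age of the animals, in days after birth, and not a day of culture. Per the study's methods the WT animals are Rnf20 Flox/Flox and the knockout animals are Amh-Rnf20-/-, in which Cre from the promoter of Amh, a Sertoli cell gene, removes the exons of Rnf20 between lox P sites. The methods describe digestion with collagenase and trypsin, growth in medium with serum and several passages, so that adherent cells were sequenced, and they give 3 individuals per group where 2 samples per group were analysed here. The adult table holds 6 samples of whole adult testis, 3 labelled WT and 3 labelled as Rnf20 conditional knockout, an experiment that the text of the study does not describe and whose labels name no Cre line. Neither source says which adult samples came from separate animals, so p-values measure the spread between these samples.

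The targeted gene was read first. Rnf20 was 16.6 and 16.01 FPKM (a level scaled by gene length and by the depth of the library) in the day 7 WT samples and 10.2 and 12.6 FPKM in the knockout samples. The samples were lower without overlap, but the log2 fold change of -0.49 ± 0.12 (SE) did not pass, with an adjusted p of 0.222 by edgeR's quasi-likelihood test and 0.105 by DESeq2. In adult testis it was 4.89, 3.32 and 4.09 FPKM in the WT samples and 9.16, 5.76 and 9.85 FPKM in the samples labelled knockout. The adult log2 fold change was 0.12 ± 0.27 (SE), with an adjusted p of 0.688 by edgeR's quasi-likelihood test, so Rnf20 was not called lower in whole adult testis and does not check the adult label. Its fold change depended on the scaling, at 0.97 with total-count scaling, where it passed as higher (adjusted p of 0.0168 by edgeR), and -0.07 with median-ratio scaling. Sertoli cells are one of several cell types there, and the adult samples are therefore called labelled knockout below.

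Leydig cells lie between the tubules. Luteinizing hormone from the pituitary acts on their receptor LHCGR and raises cAMP, STAR then moves cholesterol to the inner mitochondrial membrane, CYP11A1 cleaves its side chain with electrons carried by ferredoxin (FDX1), and HSD3B enzymes, CYP17A1 and HSD17B3 turn the resulting pregnenolone into testosterone. In the mouse, HSD3B6 and HSD17B3 are known for mature Leydig cells of the adult, fetal Leydig cells make steroids largely without HSD17B3, and INSL3 is a peptide hormone of Leydig cells that directs descent of the testis.

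Sequences before annotated starts of the genes, some of which lie inside the gene, are given here. They are shown because the steroidogenic genes are known targets of the nuclear receptor NR5A1 (SF-1), and the genes rose together in a comparison below. RefSeq promoter windows on GRCm38.p6 (250 bases before to 50 bases after a start) were found for 7 of the 9 genes, in 8 windows. The motif CAAGGT, the core of the element to which NR5A1 binds, and the half-site AGGTCA were searched on both strands, and they overlap each other inside CAAGGTCA. CAAGGT was in 3 of the 8 windows and in 12.97% of all 32851 windows, AGGTCA was in 2 of the 8 and in 16.3% of all, and CAAGGTCA was in 0 of the 8 and in 1.56% of all. The windows that held a match are printed over their last 140 bases before the start, 5′ to 3′ on the strand of the gene, with the match in capitals. The Insl3 stretch is chr8:71689112-71689251 on the plus strand, with the match at position -137 from the start. The Fdx1 stretch is chr9:51963603-51963742 on the minus strand, with the match at position -73. The Hsd17b3 stretch is chr13:64089202-64089341 on the minus strand, with the match at position -99. For Cyp11a1, the second of its 2 windows is shown, at chr9:58014812-58014951 on the plus strand, with the AGGTCA match at position -28. This stretch and its start lie inside the gene span given below. The Lhcgr stretch is chr17:88792015-88792154 on the minus strand, with the AGGTCA match at position -122. The Hsd17b3 and Lhcgr stretches run partly into the gene spans given below, so their starts also lie inside them.
Insl3: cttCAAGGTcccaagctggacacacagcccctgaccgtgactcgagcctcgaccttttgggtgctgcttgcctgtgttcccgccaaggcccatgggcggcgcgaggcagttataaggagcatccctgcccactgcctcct
Fdx1: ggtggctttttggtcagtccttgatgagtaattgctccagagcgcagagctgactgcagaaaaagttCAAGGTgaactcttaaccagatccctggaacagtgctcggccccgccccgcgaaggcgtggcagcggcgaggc
Hsd17b3: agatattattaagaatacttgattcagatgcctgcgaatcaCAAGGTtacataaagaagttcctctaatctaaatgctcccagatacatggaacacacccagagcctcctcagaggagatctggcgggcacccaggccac
Cyp11a1: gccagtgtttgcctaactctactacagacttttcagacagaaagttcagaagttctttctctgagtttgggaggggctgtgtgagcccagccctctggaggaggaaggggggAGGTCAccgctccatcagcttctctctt
Lhcgr: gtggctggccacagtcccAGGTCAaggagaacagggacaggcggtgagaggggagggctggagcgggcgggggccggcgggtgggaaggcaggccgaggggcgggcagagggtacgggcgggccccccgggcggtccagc

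Hsd3b1 and Hsd3b6 lie beside each other on chromosome 3, at 98842356 to 98859794 and 98805504 to 98814443 of GRCm38.p6. Their coding sequences, read from GENCODE transcripts on GRCm38, are 1122 bases each and identical at 90.02% of positions, with a longest identical run of 72 bases. They are shown because reads from identical stretches can be assigned to either gene, so the division of counts between the pair is uncertain. Of the first 90 coding bases, 12 differ, and these are in capitals.
Hsd3b1: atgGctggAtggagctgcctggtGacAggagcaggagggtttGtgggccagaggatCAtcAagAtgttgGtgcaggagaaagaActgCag
Hsd3b6: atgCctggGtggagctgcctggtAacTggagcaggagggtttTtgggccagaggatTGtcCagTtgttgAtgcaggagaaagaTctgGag

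The other genes lie apart in the genome (RefSeq, GRCm38.p6). Star is at 25808474 to 25815982 and Insl3 at 71689252 to 71690577 of chromosome 8, Fdx1 at 51943023 to 51963602 and Cyp11a1 at 57998024 to 58027031 of chromosome 9, and Hsd17b3 at 64058274 to 64089262 of chromosome 13. Lhcgr spans 88716384 to 88792059 of chromosome 17 and Cyp17a1 spans 46667165 to 46673000 of chromosome 19. The whole of Insl3 lies inside the span of Jak3 in this annotation, so their reads may be shared. Jak3 was 2.41 to 3.25 FPKM in adult WT and 13.7 to 14.9 FPKM in the labelled knockout, far below Insl3. At day 7 the counts were alike in size. Jak3 had 111 and 105 counts in WT and 102 and 123 in the knockout, beside 52 to 136 for Insl3. The effect of any shared reads was not tested. Cyp11a1 and Cyp17a1 each overlap a predicted gene, Gm17322 and Gm41857.

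The depth of a sample, as the sum of its rounded counts, ran from 17477282 to 17705359 for the day 7 cells and from 15431935 to 16574160 for adult testis. The summed level of 7 spermatid markers fell from between 120800 and 189170 FPKM in adult WT to between 3.51 and 72.4 FPKM in the labelled knockout, and all 7 passed the test. Earlier germ cell markers differed widely among the labelled knockout samples. Spermatocyte markers summed to 4446 to 4591 FPKM in WT and 1.87 to 429 FPKM in the labelled knockout. Spermatogonium markers summed to 560 to 697 FPKM and 46.7 to 396 FPKM. Counts are shares of a library, so the scaling between libraries matters here. The median log2 fold change of all 15919 adult genes tested was 0.01 with TMM scaling, which was used as the main scaling, 0.87 with total-count scaling and -0.19 with median-ratio scaling. In whole tissue, fewer cells of a type and less RNA per cell cannot be told apart.

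In adult testis, all 9 genes were higher in the labelled knockout, by 4.01-fold for Fdx1 to 23.2-fold for Hsd3b6, and no value of a labelled knockout sample overlapped a WT value. Each of the 9 passed an adjusted p of 0.05, a call that 40.9% of the 15919 genes tested also got in this direction and 81.5% in either direction. Groups did not overlap, with the labelled knockout higher, for 54.9% of all genes. The share of genes past a log2 fold change of 3 was 11.1%, and 7 of the 9 genes were past it. The median log2 fold change of the 9 genes was 3.75 beside 0.01 for all genes, 4.58 beside 0.87 with total-count scaling and 3.57 beside -0.19 with median-ratio scaling. Together the 9 genes took 0.217% ± 0.025 (SD, n = 3) of all counts in WT and 3.82% ± 0.44 (SD, n = 3) in the labelled knockout. Counting error on a single share of counts was at most 0.0197 percentage points wide (95% Wilson interval). Of summed TPM, a level scaled by gene length and depth, they took 0.543% ± 0.052 (SD, n = 3) in WT. In the labelled knockout they took 9.85% ± 1.62 (SD, n = 3) of summed TPM.

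**Figure D1:**
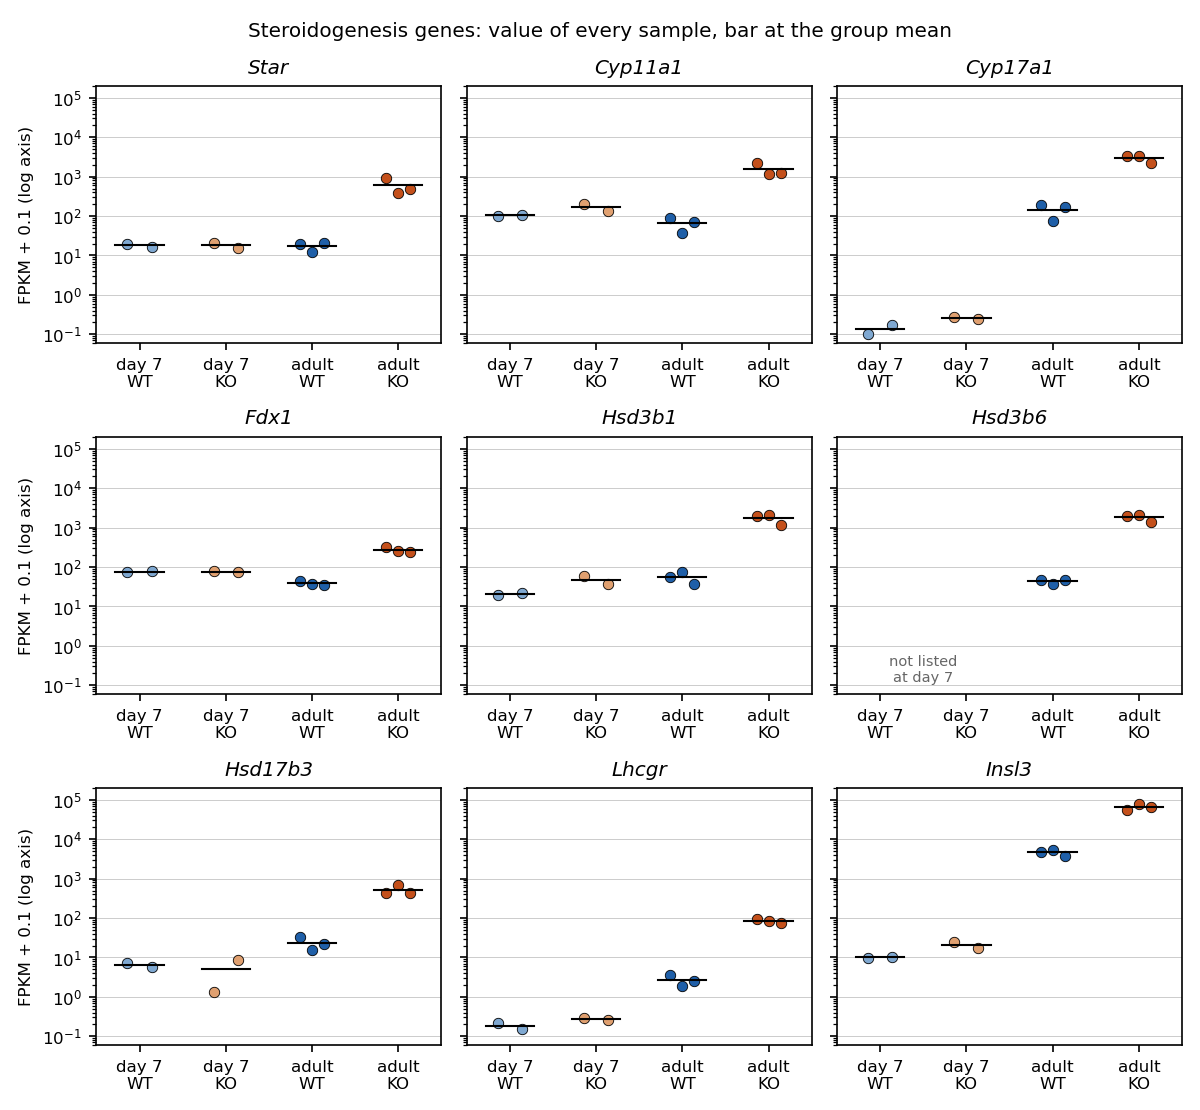
FPKM + 0.1 of the 9 steroidogenesis genes on a log axis in every sample of day 7 WT (2), day 7 KO (2), adult WT (3) and adult labelled knockout (3, "adult KO"), with a bar at each group mean. All 9 genes sit higher in the adult labelled knockout than in adult WT, Cyp17a1 and Lhcgr are below 0.2 FPKM in all 4 day 7 samples, and Hsd3b6 has no day 7 value.

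Star, the cholesterol carrier that sets the acute rate of steroid synthesis, was 19.4, 12.2 and 20.45 FPKM in WT samples 1, 2 and 3 and 946, 394 and 487 FPKM in labelled knockout samples 1, 2 and 3. The groups were far apart, and labelled knockout sample 1 stood highest, 2.40 times the lowest of its group. Star rose by 4.31 ± 0.48 (SE) on the log2 scale, with an adjusted p of 0.000314 by edgeR.

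Cyp11a1, whose enzyme makes pregnenolone from cholesterol, was 89.9, 36.7 and 68.9 FPKM in the WT samples and 2219, 1202 and 1246 FPKM in the labelled knockout samples. WT sample 2 was low and labelled knockout sample 1 was high within their groups, as they were for Star. Its log2 fold change was 3.75 ± 0.48 (SE), with an adjusted p of 0.000521 by edgeR.

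Cyp17a1, the 17-hydroxylase and lyase that leads to androgens, was 196, 74.2 and 167 FPKM in WT and 3284, 3374 and 2233 FPKM in the labelled knockout. WT sample 2 was again lowest, and labelled knockout sample 3 was lowest in its group. On the log2 scale Cyp17a1 rose by 3.51 ± 0.46 (SE), with an adjusted p of 0.000588 by edgeR.

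Fdx1, the electron carrier of mitochondrial P450 enzymes, which many tissues express, was 42.9, 37.6 and 35.6 FPKM in WT and 325, 258 and 235 FPKM in the labelled knockout. It had the smallest spread among the WT samples, a coefficient of variation of 9.78%, and the smallest rise of the 9 genes. The log2 fold change was 2.0 ± 0.2 (SE), with an adjusted p of 0.00019 by edgeR, and 3512 of the 15919 genes tested had a larger one.

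Hsd3b1 was 55.8, 75.5 and 37.7 FPKM in WT and 1935, 2115 and 1177 FPKM in the labelled knockout. Hsd3b6 was 46.9, 38.1 and 47.7 FPKM in WT and 1966, 2153 and 1418 FPKM in the labelled knockout. These are the paralogs compared above, both 3β-hydroxysteroid dehydrogenases, and WT sample 2 was highest for Hsd3b1 and lowest for Hsd3b6. Hsd3b1 and Hsd3b6 rose by log2 fold changes of 4.09 ± 0.44 (SE, adjusted p of 0.000269 by edgeR) and 4.54 ± 0.30 (SE, adjusted p of 5.32e-05). Hsd3b6 was 0.841, 0.505 and 1.27 times Hsd3b1 in the WT samples and 1.02, 1.02 and 1.21 times in the labelled knockout samples. These ratios overlapped between groups (exact two-sided permutation test, p = 0.5, where 0.1 is the smallest that 3 against 3 can give).

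Hsd17b3, whose enzyme reduces androstenedione to testosterone, was 32.9, 15.8 and 22.3 FPKM in WT and 424, 696 and 439 FPKM in the labelled knockout. Here labelled knockout sample 2, not sample 1, was the high one. Hsd17b3 rose by a log2 fold change of 3.6 ± 0.35 (SE), with an adjusted p of 0.000187 by edgeR.

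Lhcgr, the receptor for luteinizing hormone, was the lowest of the 9 genes in both adult groups, at 3.49, 1.76 and 2.47 FPKM in WT and 93.4, 84.3 and 74.4 FPKM in the labelled knockout. Its labelled knockout samples agreed more closely than those of any of the other genes, with a coefficient of variation of 11.3%. Lhcgr rose by 4.22 ± 0.26 (SE) on the log2 scale, with an adjusted p of 4.56e-05 by edgeR.

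Insl3, the peptide hormone, was the highest, at 4873, 5402 and 3700.2 FPKM in WT and 54592, 80266 and 65865 FPKM in the labelled knockout. It was between the 11th and 15th highest gene of the table in the WT samples and the highest of all genes in all 3 labelled knockout samples. The log2 fold change was 2.97 ± 0.39 (SE), with an adjusted p of 0.000599 by edgeR. Insl3 alone took 0.155% ± 0.027 (SD, n = 3) of counts in WT and 2.21% ± 0.42 (SD, n = 3) in the labelled knockout.

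**Figure D2:**
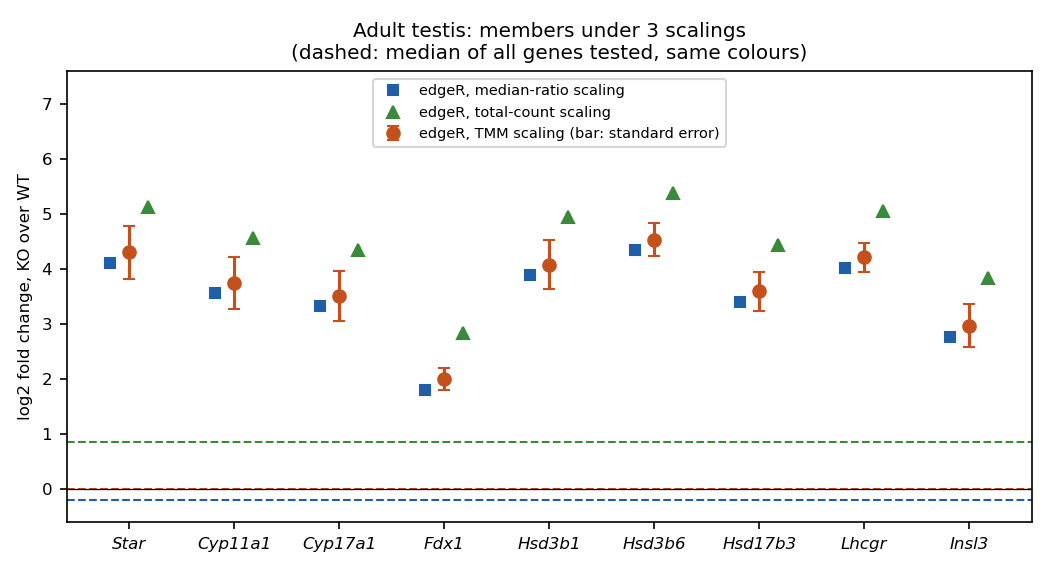
Adult log2 fold change, labelled knockout over WT (3 samples each), of the 9 genes with TMM scaling (circles, bars are standard errors), median-ratio scaling (squares) and total-count scaling (triangles), with dashed lines at the median of all genes tested under each scaling. All 9 genes lie above all 3 lines, and Fdx1 is the lowest at 2.0 with TMM scaling and 2.85 with total-count scaling.

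All 9 genes kept their direction and passed the test under every scaling, tool and filter tried, and without each sample in turn. In the fit to all samples they also passed the thresholds of the study (log2 fold change over 1 and adjusted p under 0.001), as did 23% of all genes in this direction. Those thresholds were passed by 3, 2 and 2 of the 9 genes without WT sample 1, 2 or 3, by 9, 3 and 6 without labelled knockout sample 1, 2 or 3, and by 0 of the 9 genes, as of all genes, with the replicate number as a block. Hsd3b6 and Lhcgr passed them whichever WT sample was left out. The order of levels in adult WT ran from Insl3 through Cyp17a1, Cyp11a1, Hsd3b1, Hsd3b6, Fdx1, Hsd17b3 and Star to Lhcgr. Neighbours from Cyp17a1 to Fdx1 overlapped in their samples, as did Hsd17b3 and Star. In the labelled knockout the order was Insl3, Cyp17a1, Hsd3b6, Hsd3b1, Cyp11a1, Star, Hsd17b3, Fdx1 and Lhcgr. Hsd3b6 overlapped Hsd3b1, Hsd3b1 overlapped Cyp11a1 and Star overlapped Hsd17b3, while Fdx1 was now below all the other genes except Lhcgr.

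Ratios within a library do not depend on the scaling between libraries. Relative to Cyp11a1, Fdx1 was the only one of 8 genes whose adult groups did not overlap. The mean log2 ratio of Fdx1 to Cyp11a1 was -0.66 ± 0.60 (SD, n = 3) in WT and -2.47 ± 0.28 (SD, n = 3) in the labelled knockout. This difference of -1.80 had a p of 0.1 by exact two-sided permutation, the smallest possible, and an adjusted p of 0.4 over the 8 ratios. For the other 7 genes the ratio to Cyp11a1 differed between groups by -0.76 for Insl3 to 0.76 for Hsd3b6 on the log2 scale, with overlapping samples.

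Markers of other cells outside the tubules were also higher in the labelled knockout. All 8 macrophage markers passed the test as higher, with a summed level of 57.2 to 66.5 FPKM in WT and 1164 to 1576 FPKM in the labelled knockout, as did all 6 stromal fibroblast markers, with 40.5 to 53.4 FPKM and 1303 to 3390.4 FPKM. Of 7 endothelial markers 5 passed as higher, where 40.9% of all genes did, and of 7 peritubular myoid markers 5 passed as higher and 1, Actg2, as lower (290 FPKM on average in WT and 2.497 FPKM in the labelled knockout). Of 10 Sertoli markers 4 passed as higher and 1 as lower. With total-count scaling 7 Sertoli, 7 endothelial and 6 peritubular myoid markers passed as higher, as did 8615 of the 15919 genes tested. Median-ratio scaling gave the same counts as TMM scaling for these 3 lists.

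How far the steroidogenesis genes rose beyond such cells depended on the cells chosen for reference. Relative to the mean of 22 peritubular, macrophage and endothelial markers in the same library, 8 genes were higher in the labelled knockout without overlap, by 0.86 for Insl3 to 2.38 for Hsd3b6 on the log2 scale, and Fdx1 was lower by -0.18, each with an exact permutation p of 0.1 (adjusted p = 0.1 over 9). With a pseudocount of 1, all 9 were higher without overlap, Fdx1 by 0.33. Without Actg2, the marker that fell, 6 genes were higher without overlap, Fdx1 was lower by -0.65, and Insl3, at 0.39 (exact permutation p = 0.3), and Hsd17b3, at 1.02 (exact permutation p = 0.2), overlapped. With the 6 other peritubular markers alone 7 genes were higher without overlap, and Insl3 and Fdx1 overlapped. With macrophage markers alone, a reference chosen, like these, after the values were seen, Hsd3b6 and Lhcgr were higher without overlap, by 1.01 and 0.67, Insl3 and Fdx1 were lower, by -0.51 and -1.55, and the other 5 overlapped. With stromal fibroblast markers, likewise chosen afterwards, 0 genes were higher without overlap, Insl3 and Fdx1 were lower, by -1.09 and -2.13, and 7 overlapped. Endothelial markers alone gave 8 genes higher and Fdx1 overlapping, at a difference of 0.02.

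**Figure D3:**
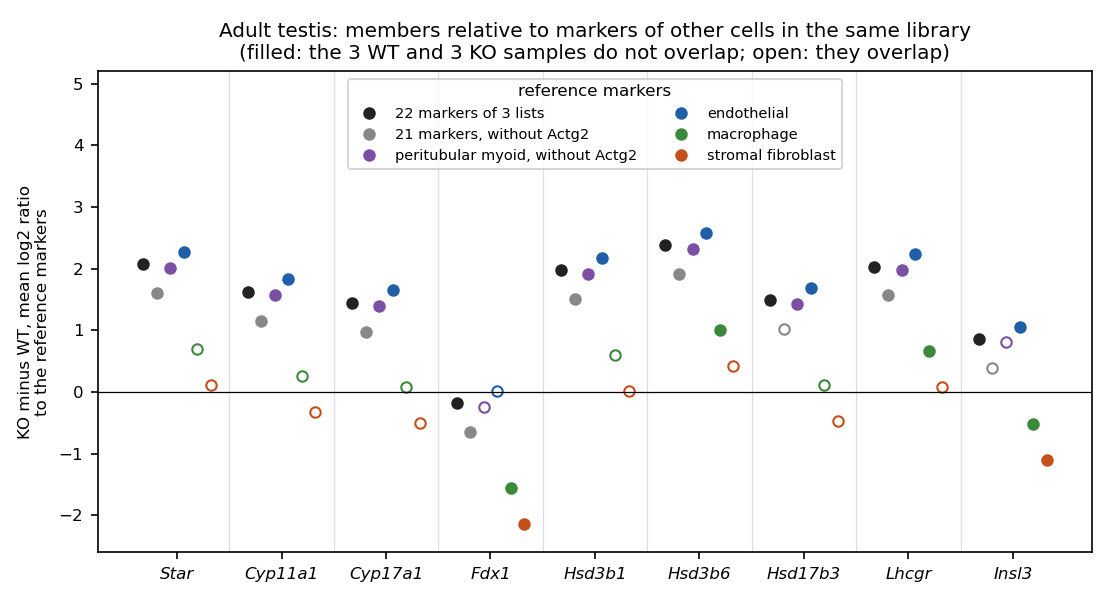
Difference between labelled knockout and WT (3 samples each) in the mean log2 ratio of each gene to reference markers of the same library, for 6 sets of reference markers, with filled points where the samples of the groups do not overlap. Most genes lie 1 or more above 0 with endothelial or peritubular markers. With macrophage or stromal fibroblast markers they lie on both sides of 0, at medians of 0.25 and -0.33. Fdx1 is lowest with every reference.

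In day 7 cells, 0 of the 6 genes tested passed an adjusted p of 0.05, as did 0% of all 12880 genes tested, and 3 of the 6 had an unadjusted p under 0.05, all higher in the knockout, as did 8.52% of all genes. These 3 were Cyp11a1, Hsd3b1 and Insl3, the 3 whose knockout samples both lay above both WT samples, as 19.7% of all genes did. DESeq2 called 580 genes, or 4.5% of those tested, and among them Cyp11a1 and Hsd3b1 of the 6 genes, both higher (3.01% of all genes were called higher). Star, Fdx1 and Hsd17b3 overlapped between groups, and Cyp17a1 and Lhcgr did not reach the 0.5 FPKM needed for the test. The median log2 fold change of the 6 genes was 0.40 beside -0.00 for all genes. Leaving out a single sample leaves 1 in its group, so only effect sizes are given here. The median of the 6 genes was then 0.42 and 0.43 without WT sample 1 or 2. It was 0.44 and 0.62 without knockout sample 1 or 2.

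Hsd3b1 was 19.1 and 21.9 FPKM in WT samples 1 and 2 and 58.4 and 37.0 FPKM in knockout samples 1 and 2. Both knockout samples were higher, sample 1 the more so. For Hsd3b1 the log2 fold change was 1.26 ± 0.25 (SE), with an unadjusted p of 0.00544 and an adjusted p of 0.172 by edgeR. DESeq2 gave an adjusted p of 0.000221, and the fits to all 4 samples ranged from that value to 0.316.

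Insl3 was 9.45 and 10.5 FPKM in WT and 24.6 and 17.0 FPKM in the knockout. These values rest on few counts, 52 and 57 in WT and 136 and 92 in the knockout. Sample 1 was again the higher of the knockout samples. For Insl3 it was 1.10 ± 0.28 (SE) on the log2 scale, with an unadjusted p of 0.0131 and an adjusted p of 0.221 by edgeR, and adjusted values of 0.147 to 0.344 over the fits to all 4 samples.

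Cyp11a1 was the highest of the genes at day 7, at 101 and 106 FPKM in WT and 197 and 136 FPKM in the knockout. The WT samples lay close together and the knockout samples well apart. Its log2 fold change was 0.71 ± 0.20 (SE), with an unadjusted p of 0.0184 and an adjusted p of 0.244 by edgeR, and adjusted values of 0.023 (DESeq2) to 0.378 over the fits to all 4 samples. It was 0.41 without knockout sample 1 and 0.96 without knockout sample 2.

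Fdx1 was 73.7 and 77.9 FPKM in WT and 80.1 and 73.7 FPKM in the knockout, and Star was 19.04 and 16.7 FPKM in WT and 21.1 and 14.96 FPKM in the knockout. For both genes the groups overlapped. The log2 fold change was 0.08 ± 0.09 (SE) for Fdx1 and 0.05 ± 0.20 (SE) for Star, with adjusted p-values of 0.696 and 0.923 by edgeR, and the sign for Star turned with limma.

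Hsd17b3 was 7.09 and 5.77 FPKM in WT and 1.23 and 8.72 FPKM in the knockout. The knockout samples lay on either side of the WT samples, and sample 1, the higher one for 7 of the 8 listed genes, was the low one here. The log2 fold change was -0.35 ± 0.85 (SE, adjusted p of 0.882 by edgeR), 0.46 without knockout sample 1 and -2.35 without knockout sample 2.

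Cyp17a1 had 0 and 2 counts in the WT samples and 5 and 4 counts in the knockout samples, or at most 0.18 FPKM. The 95% Poisson interval runs from 0 to 3.69 for the count of 0 and from 1.62 to 11.7 for the 5 counts. Lhcgr had 4 and 5 counts in WT and 10 and 12 counts in the knockout, or at most 0.19 FPKM. In a fit without the filter on low values neither passed, with log2 fold changes of 2.07 ± 1.06 (SE) for Cyp17a1 and 1.30 ± 0.40 (SE) for Lhcgr and adjusted p of 0.498 and 0.398 by edgeR. Day 7 cells thus held Cyp11a1 and Fdx1 among their more abundant transcripts, with ranks from 470 to 1388 in the table, and only a few counts for the receptor of luteinizing hormone and the enzyme of the androgen branch.

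**Figure D4:**
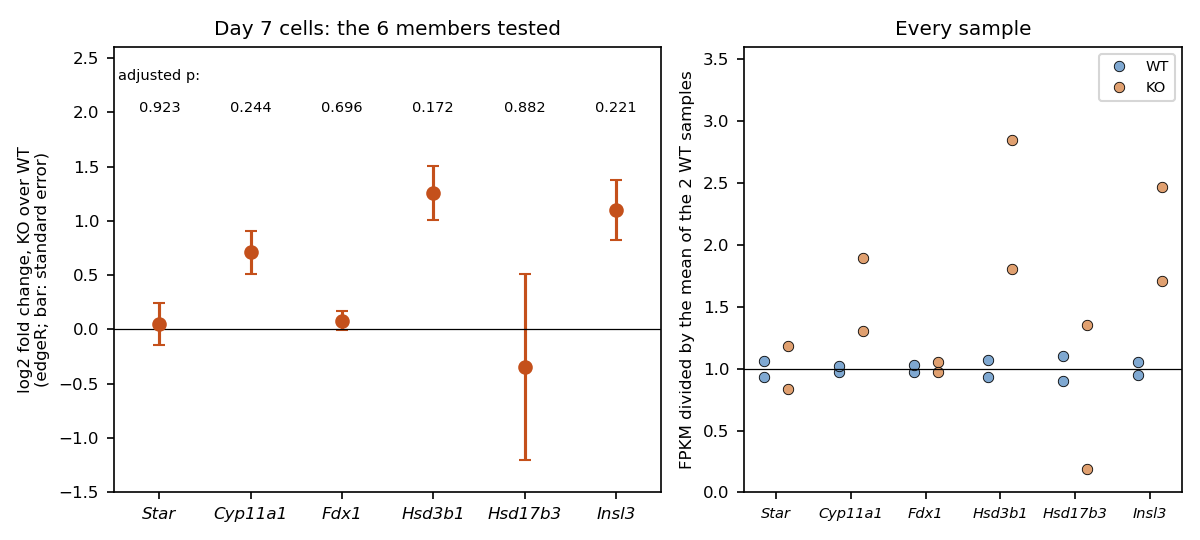
Left, log2 fold change, knockout over WT (2 samples each), of the 6 genes tested in day 7 cells, with standard errors and the adjusted p from edgeR printed above. Right, the FPKM of every sample divided by the WT mean, where Cyp11a1, Hsd3b1 and Insl3 lie above 1 in both knockout samples and Hsd17b3 spans the WT samples.

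The day 7 order of levels differed from that of adult testis. In WT cells it ran Cyp11a1, Fdx1, Hsd3b1, Star, Insl3, Hsd17b3, Lhcgr and Cyp17a1, and only the last pair overlapped. In knockout cells Insl3 came before Star, with overlap. The tables were normalized separately, so the levels stand side by side without a test. Insl3 averaged 9.96 FPKM in day 7 WT cells and 4658 FPKM in adult WT testis, while Cyp11a1 averaged 104 FPKM and 65.2 FPKM. The 8 listed genes took 0.0348% ± 0.0004 (SD, n = 2) of counts in day 7 WT and 0.0491% ± 0.0109 (SD, n = 2) in the knockout.

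Marker genes of some other cells moved with the 3 genes that were higher in the day 7 knockout. Sertoli markers were present in the cells, with Clu at 910 FPKM, Cldn11 at 221 FPKM and Sox9 at 40.6 FPKM on average in WT, but Tsx and Gata1 were under the filter on low values. The 10 Sertoli markers summed to 1501 to 1661 FPKM in WT and 819 to 1196 FPKM in the knockout, and 7 of them were lower without overlap, as were 31.1% of all genes. All 7 peritubular myoid markers were higher without overlap, as were 19.7% of all genes, with sums of 2376 to 2515 FPKM in WT and 4115 to 4290.5 FPKM in the knockout, and so were all 6 stromal fibroblast markers, with 2152 to 2236 FPKM and 3306 to 3920.1 FPKM. Endothelial markers went both ways, with log2 fold changes of -0.45 for Pecam1, -0.17 for Egfl7, 0.40 for Cdh5 and 0.83 for Kdr. The macrophage markers that were tested, Cd68, Csf1r and C1qa, were at 0.57, 0.21 and 1.01. None of all these markers passed an adjusted p of 0.05 by edgeR, and their part in the values of the steroidogenesis genes was not tested. Of the markers that define the fetal Leydig lineage, Thbs2 was 25.0 FPKM in WT and 32.3 FPKM in the knockout, which is not particular to those cells, while Mc2r, Crhr1 and Vsnl1 did not pass the filter.

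The 10 related lists, holding 71 genes, were read in the same fits. At day 7, edgeR called 0 of the 54 genes tested, 17 had an unadjusted p under 0.05, 14 of them higher in the knockout, beside 15.5% of all genes in either direction and 8.52% higher, and DESeq2 called 5, in the lists of Leydig progenitors, Leydig maturation and other steroid enzymes. In adult testis the counts below stand beside 40.9% of all genes called higher and 81.5% called in either direction, so a list with 5 of 10 higher or 8 of 10 called is near that share. The redox partners of the P450 enzymes were all higher in the adult labelled knockout, 5 of 5. Fdxr, the reductase that feeds FDX1, went from 14.7 FPKM ± 0.4 (SD, n = 3) to 259 FPKM ± 138 (SD, n = 3), a log2 fold change of 3.33. Cyb5a, the cytochrome b5 that favours the lyase step of CYP17A1, went from 50.6 to 516 FPKM on average, a log2 fold change of 2.49.

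Of 10 genes that carry the signal of LHCGR, 5 rose and 3 fell in the adult labelled knockout, close to the shares over all genes. Gnas, the stimulatory G protein, and Adcy9, an adenylate cyclase, rose by 2.57 and 2.82 on the log2 scale. Crem, Prkar2a and the phosphodiesterase Pde8a fell, with log2 fold changes of -4.46, -3.65 and -2.19. Crem, a cAMP-responsive regulator, and Prkar2a, a subunit of protein kinase A, are also known from spermatids. Prkaca and Prkar1a, further subunits of that kinase, had log2 fold changes of 0.27 and 0.29 and did not pass, but passed as higher with total-count scaling, at 1.12 and 1.15.

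Among 8 tested transcription regulators of steroidogenic genes, 7 rose and 0 fell. Nr5a1, which encodes SF-1, was 6.54 FPKM ± 0.62 (SD, n = 3) in WT and 159 FPKM ± 60 (SD, n = 3) in the labelled knockout, a log2 fold change of 3.76. Cebpb, Nr2f2 and Jun rose by 4.45, 3.87 and 3.29, and Gata4 by 3.03. Nr4a1, an immediate early gene, did not pass (log2 fold change -0.29, and 0.55 with total-count scaling). In day 7 cells Nr5a1 was 44.8 FPKM on average in WT and 36.7 FPKM in the knockout, and Gata4 was 129 and 103 FPKM, so both were present there at levels above those of adult WT testis on the FPKM scale of each table.

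Of 10 genes for the supply of cholesterol to mitochondria, 8 rose and 2 fell in the adult labelled knockout. Npc1, which releases cholesterol from lysosomes, rose by 3.35, and Tspo, a protein of the outer mitochondrial membrane, by 3.22. Lipe, the hormone-sensitive lipase, which also has a form in spermatids, fell by 4.29, and Acbd3 fell by 0.69 with TMM scaling and was at 0.18 with total-count scaling, where it did not pass.

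The list of other steroid enzymes had 11 of 13 tested genes higher and 1 lower. Hsd17b7 and Hsd17b11 rose by 4.27 and 4.01, and Sult1e1, the estrogen sulfotransferase, rose from 17.2 FPKM on average to 668 FPKM. Cyp19a1, the aromatase, fell by 6.29, from 3.10 FPKM ± 1.12 (SD, n = 3) to 0.07 FPKM ± 0.03 (SD, n = 3). Hsd17b1 did not pass, at a log2 fold change of 0.62.

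All 7 markers of adult Leydig cell maturation and all 6 markers of Leydig progenitors were higher. Ptgds, the prostaglandin D synthase, rose from 317 FPKM ± 102 (SD, n = 3) to 16839 FPKM ± 6535 (SD, n = 3), a log2 fold change of 4.88. Prlr, the prolactin receptor, rose by 4.39 and Vcam1, an adhesion molecule, by 3.14. Among the progenitor markers Pdgfra rose by 4.62 and Tcf21 by 3.26, and Pdgfra is also one of the stromal fibroblast markers. The 4 fetal Leydig markers did not pass the filter in adult testis, where they summed to at most 1.21 FPKM in any sample. In the edgeR fit without the filter on low values, 2 of them were called.

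Cyp21a1, the 21-hydroxylase known for the adrenal gland, was 2.33 FPKM ± 1.86 (SD, n = 3) in adult WT and 259 FPKM ± 73 (SD, n = 3) in the labelled knockout. Its log2 fold change of 5.96 ± 0.71 (SE) was above that of each of the 9 steroidogenesis genes, and Akr1b7, another gene of that list, rose by 4.35. The mouse has a near-identical pseudogene of Cyp21a1, so its count is uncertain. Cyp11b1, Cyp11b2 and Mc2r, which define the adrenal cortex, did not pass the filter, and Cyp11b1 averaged 0.02 FPKM in WT and 0.01 FPKM in the labelled knockout. Rxfp2, the receptor for INSL3, went the other way from its ligand, from 2.36 FPKM ± 0.77 (SD, n = 3) to 0.25 FPKM ± 0.13 (SD, n = 3), a fall by 4.11 on the log2 scale. It is known from germ cells as well as from the ligament that guides the testis.

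**Figure D5:**
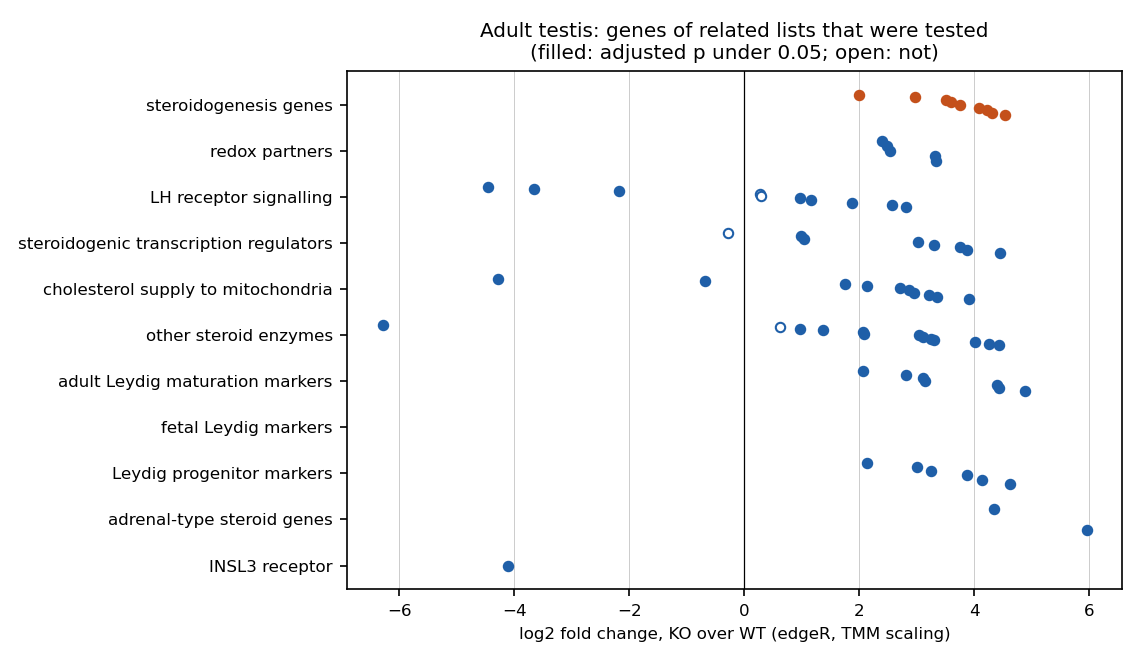
Adult log2 fold change, labelled knockout over WT (3 samples each), of every tested gene of the steroidogenesis genes and of 10 related lists, filled where the adjusted p from edgeR is under 0.05. The redox partners and both kinds of Leydig markers lie at 2 or more, while genes for LHCGR signalling, cholesterol supply and other enzymes lie on both sides of 0, and no fetal Leydig marker was tested.

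At day 7, several of these markers were higher in both knockout samples without passing edgeR's test, and DESeq2 called 3 of the 6 progenitor markers and 2 of the 5 maturation markers tested, all higher, beside 3.01% of all genes called higher. Tcf21 averaged 15.5 FPKM in WT and 60.7 FPKM in the knockout, a log2 fold change of 2.01 ± 0.19 (SE) with an adjusted p of 0.119 by edgeR and 7.02e-15 by DESeq2. Pdgfra was at 0.97 on the same scale, with an adjusted p of 0.168 by edgeR and 0.000225 by DESeq2. Akr1c14, a hydroxysteroid dehydrogenase that was named after its values were seen, ran from 1.58 to 2.05 FPKM in WT and from 5.87 to 8.11 FPKM in the knockout, at a log2 fold change of 2.0 ± 0.22 (SE) that edgeR did not call (adjusted p = 0.119) and DESeq2 did (adjusted p = 2.61e-07). The spread of the knockout pair was wider for other markers of maturation. Ptgds was 13.9 FPKM ± 2.7 (SD, n = 2) in WT and 60.8 FPKM ± 48.3 (SD, n = 2) in the knockout, and was called by DESeq2 (adjusted p = 0.0028). Vcam1 was 5.49 FPKM ± 0.20 (SD, n = 2) in WT and 25.1 FPKM ± 23.5 (SD, n = 2) in the knockout.

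Over the 6 adult samples, the genes outside the lists whose pattern lay nearest the mean of the 9 genes were Acat2, Idh1, Btd, Ier3 and Acaa2, of 10371 genes compared. Nearness was the Euclidean distance between profiles of log2(FPKM + 0.1), each centred on its mean, and it was 0.188 for Acat2 and 0.266 for Acaa2. Acat2 was 5.96, 4.36 and 4.72 FPKM in WT and 126, 127 and 105 FPKM in the labelled knockout. The 9 genes themselves lay at 0.678 for Hsd17b3 to 2.12 for Fdx1 from their own mean, and the mean of 9 noisy profiles is smoother than any one of them. At day 7, Btd was the only one of the 5 nearest genes with both knockout samples above both WT samples, at 19.1 and 18.8 FPKM in WT and 21.2 and 21.02 FPKM in the knockout. Ier3 was 389 and 387 FPKM in WT and 210 and 247 FPKM in the knockout, and Acaa2 was 74.6 and 78.9 FPKM in WT and 58.8 and 82.6 FPKM in the knockout.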

How the data were processed

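RNA was enriched with oligo(dT) and sequenced on the BGISEQ platform. Per the study's methods, HISAT (genome, GRCm38.p6) and Bowtie2 (reference genes) mapped the reads and RSEM gave the values, with versions not given in the sources used here. The deposited tables give each gene an estimated count from the authors' RSEM run, not normalized. They also give FPKM values, which the authors scaled for library size and the length of the gene. TPM values made by the authors served only for a check of shares. A further 20 columns, counted over both tables, were not assigned to a sample and were not used. All samples carry a growth protocol that speaks of adult tissue, and the titles and the study's methods were followed for day 7. Groups come from the labels.

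Estimated counts were rounded. The test took genes at 0.5 FPKM or more in 2 samples (day 7, 12880 genes) or 3 samples (adult, 15919 genes), with edgeR 4.0.16 (quasi-likelihood test, TMM scaling, Benjamini-Hochberg adjustment over all genes tested, called at an adjusted p under 0.05) in R 4.3.3, each table alone and without covariates, as counts were found. The standard error is |log2 fold change| over the square root of the F statistic. Ratios used log2(FPKM + 0.1) and an exact two-sided permutation test in scipy 1.17.1. The code was tested on simulated data. Alternatives were DESeq2 1.42.0, limma 3.58.1 on log2(FPKM + 0.1) and log2(FPKM + 1), other scalings and filters, the study's thresholds, the replicate number as a block and each sample left out. At this depth the spread between samples limits the comparisons. Intervals cover counting error only.

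The 9 genes, the lists and the rule for named genes were chosen with earlier results of these data known. The rule names the 9 genes, Rnf20, up to 4 genes per list with the largest adult change among those called, up to 2 with the highest FPKM among those not called and up to 2 with the highest FPKM at day 7. Jak3, Pde8a, Acbd3, Akr1c14, Actg2, Mc2r, Crhr1, Cyp11b2 and the Sertoli, endothelial and macrophage markers were named after their values had been seen, outside the rule. A few items the rule would name are left out of the text. Gene positions and promoters are from RefSeq and coding sequences from GENCODE M21, aligned with Biopython 1.88.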

Additional observations from a re-analysis of the deposited data

How the results depend on the processing

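In adult testis, the 9 genes kept their direction and their call in all 126 log2 fold changes refitted under the alternatives. Their median log2 fold change was 4.577 with total-count scaling, 4.609 and 4.587 with limma at pseudocounts of 0.1 and 1, and 3.486 to 4.035 with each sample left out, the lowest without WT sample 2. The study's thresholds called 7433 genes in place of 12969, and 3140, 2695 and 2738 without WT sample 1, 2 or 3, 10303, 3393 and 4685 without labelled knockout sample 1, 2 or 3, and 0 with the replicate block. The split of higher and lower calls was 6504 and 6465 with TMM, 8615 and 4775 with total-count and 5987 and 6925 with median-ratio scaling.

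The median ratio to interstitial markers was 1.622, and 2.138 with a pseudocount of 1, where Fdx1 turned to 0.3264. With references added after seeing the data it was 1.153 without Actg2, 0.2531 with macrophage and -0.3296 with stromal fibroblast markers. Insl3 turned to -0.5115 with macrophage markers and Fdx1 to 0.02065 with endothelial markers. With stromal fibroblast markers Cyp11a1, Cyp17a1, Hsd17b3 and Insl3 turned to -0.3296, -0.5009, -0.4623 and -1.094. The cause was not tested.

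At day 7, edgeR called 0 genes and DESeq2 called 580, of which 2 of the 6 genes tested. Leaving out a sample leaves 1 in its group, which is assumed to vary like the other group. This gave 0 to 5144 genes and 0 to 5 of the 6 genes, with 2764 genes and 3 of the 6 without knockout sample 1, 5144 and 5 without knockout sample 2, and 0 without either WT sample. Counts of the WT pair differed with a chi-square of 2.65 per degree of freedom and those of the knockout pair with 34.3. In adult testis this was 13.7 to 17.6 among WT samples, 88.1 and 118 between labelled knockout sample 1 and samples 2 and 3, and 21.4 between those. The median of the 6 genes was 0.3558 with total-count scaling, 0.3371 and 0.3348 with limma, 0.8957 without a filter, where 8 genes enter, and 0.4173 to 0.619 with each sample left out. Star turned to -0.005562 and -0.00447 with limma, -0.04351 without WT sample 2 and -0.2227 without knockout sample 1, and was 0.2827 and called without knockout sample 2. Hsd17b3 turned to 0.4611 without knockout sample 1 and was -2.354 and called without knockout sample 2. The counts of genes called in the related lists rose from 0 in 19 of 120 comparisons at day 7, all with DESeq2 or without a knockout sample. In adult testis this happened in 1 of 140, without the filter on low values.

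Whether replicate numbers pair the samples could not be settled. In adult testis, deviations of same-numbered samples correlated at 0.0108 to 0.0248 and those of other-numbered samples at -0.0225 to 0.0105. At day 7 the values were 0.036 and -0.036. With 2 samples per group these are mirror images by construction, so they cannot show or exclude pairing. With the replicate block, edgeR called 12212 adult genes and all 9 steroidogenesis genes, and 0 genes at day 7. No group was large enough to test for a single outlying sample.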
